A study of Drosophila melanogaster with 4 samples.

Results

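H3K27me3 was mapped by chromatin immunoprecipitation and sequencing (ChIP-seq) in head nuclei of adult Drosophila melanogaster. The sequence considered here is what the called regions leave uncovered, or bare, on the autosomal arms 2L, 3L and 3R. Stretches were chosen by the called regions themselves: a stretch was any run of 40000 bp or more with no enriched region in the list of the whole series, with arm lengths taken from the header of that list. By this rule 282 stretches were found among 6606 gaps between regions on the 3 arms, which is 4.27% of the gaps. The flies were of the wild-type strain Oregon-R, of mixed adult age, raised in cages on overlapping cycles of 22 days, and heads were collected with sieves. There were 2 ChIP libraries, made with an Abcam antibody of lot 3, and 2 input libraries, 1 for each ChIP library. All 4 libraries share strain, genotype and stage, so no treatment or mutant is compared. Nothing in the labels ties the replicates to separate fly collections, and their spread may be technical only. Whole heads hold neurons, glia, eye, muscle and fat cells, and a region list from such material does not tell a mark absent from every cell from a mark held by few.

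H3K27me3 is the trimethylated form of lysine 27 on histone H3. It is made by Polycomb repressive complex 2 (PRC2), whose catalytic subunit in flies is Enhancer of zeste, and it is spread over silenced developmental genes in broad domains. Sequence between such domains is known to hold housekeeping genes, genes active in the tissue and gene-poor chromatin of other kinds. Which of these a bare stretch holds cannot be read from a region list. Positions are on FlyBase release 5 and are counted from 1. No annotation of that release was used here, so stretches are given by position and arm and no gene is named in them.

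The list that defined the stretches held 10507 regions. The lists of replicate 1 and replicate 2 held 4865 and 10330 regions and covered 28.5 Mb and 40.9 Mb of the genome. The lists give no read numbers, so the depth behind each value is unknown, and a longer list leaves less sequence bare. A region list also hides signal below the authors' threshold. The whole-series list is not independent of the replicate lists, so what the replicates hold inside the stretches is described and not tested.

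The stretches were few, but they held much of the sequence outside regions. Together they measured 20.3 Mb, which was 26.97% of the 3 arms and 44.5% of the length outside regions. The typical gap was far shorter, with a median of 1489 bp over all gaps and 2660 gaps under 1 kb. Those 2660 gaps made up 40.3% of all gaps and 2.24% of the uncovered length. The width of the stretches had a median of 59.8 kb, with quartiles of 49.4 and 84.3 kb. Of the 282, 43 reached 100 kb, and these 43 held 28.8% of the stretch length. The threshold cut through a continuous range of widths. The 3 narrowest stretches, of 40068, 40125 and 40204 bp, lay on 3R at 4540078 to 4580145, 15434931 to 15475055 and 3310005 to 3350208. The 3 widest gaps left out measured 39959 and 39923 bp on 3R and 39823 bp on 3L.

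**Figure D1:**
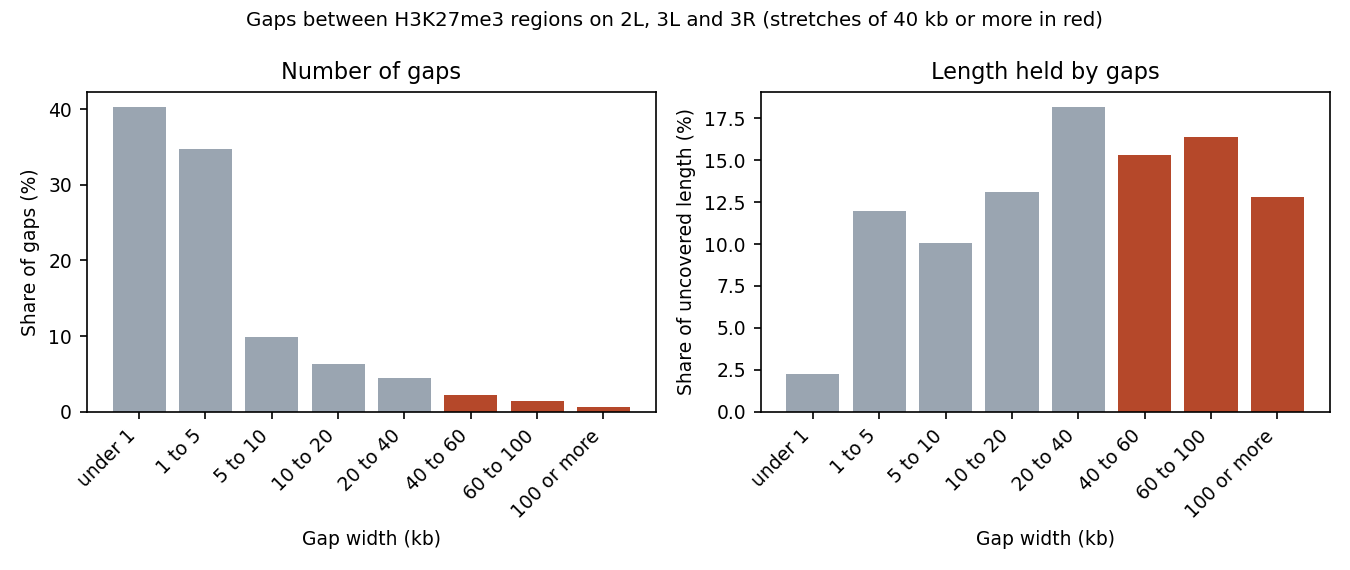
Share of the 6606 gaps on 2L, 3L and 3R (left) and share of their summed length (right) by gap width in kb, with stretches of 40 kb or more in red and shorter gaps in grey. The gaps under 1 kb are 40.3% of the gaps but 2.24% of the length, and the 43 stretches of 100 kb or more hold 12.8% of the uncovered length.

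As a share of the arm, 3L held the most sequence in stretches and 3R the least, in the whole-series list and in each replicate list. In length it was 7.67 Mb on 3L, 6.23 Mb on 2L and 6.45 Mb on 3R, the longest of the 3 arms. Stretches numbered 99 on 3L, 87 on 2L and 96 on 3R, or 4.03, 3.78 and 3.44 per Mb. In replicate 1 alone this order turned, with 4.52, 4.26 and 4.87 per Mb, while replicate 2 alone gave 4.24, 3.74 and 3.30. They took up 31.2% of 3L, 27.1% of 2L and 23.1% of 3R. On 3L, 20 of the 99 stretches were 100 kb or wider, against 11 of 87 on 2L and 12 of 96 on 3R. When stretches were found anew in each replicate list, their share was 63.7% and 30.5% on 3L, 52.8% and 26.6% on 2L, and 51.0% and 21.6% on 3R (replicate 1 and replicate 2). The mean was 47.1% ± 23.5 on 3L, 39.7% ± 18.5 on 2L and 36.3% ± 20.8 on 3R (SD, n = 2 each). The arms differed by less than the replicates did, although the order of these shares was the same in both lists. Arms of the same libraries are not replicates, so no test was made. For comparison, the whole-series list left 76 such stretches on 2R, 26.6% of that arm, and 103 on X, 38.6%, so X exceeded each of the 3 autosomal arms. The share on X was also the highest in each replicate, at 71.5% in replicate 1 and 39.6% in replicate 2.

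The widest stretches lay mostly on 3L, which held 6 of the 10 widest, while 2L and 3R held 2 each. The widest of all measured 228.5 kb, at 17884337 to 18112870 on 3L, between a region of 1695 bp and a region of 1258 bp. Its neighbour in rank, 207.8 kb at 17458049 to 17665828, lay on the same arm 218.5 kb away. The next measured 199.1 kb and lay on 3L at 5110923 to 5309972. The fourth was the widest of 2L, with 191.3 kb at 21399917 to 21591259. On 3R the widest was 185.4 kb, at 5691929 to 5877356. Of the other 5, 3L held one of 190.7 kb (7963259 to 8153998), one of 187.8 kb (19775930 to 19963745) and one of 177.2 kb (9330983 to 9508226). The last 2 were a stretch of 167.8 kb on 3R (19771934 to 19939691) and one of 163.6 kb on 2L (10356594 to 10520212). Of the 20 regions that flank these 10 stretches, 18 were under 5 kb wide, and the others measured 32250 bp (beside the 190.7 kb stretch) and 10333 bp (beside the 163.6 kb stretch).

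How far the replicates held these 10 bare differed between the lists. In replicate 1 the gap around each was wider than the stretch itself, from 163.7 kb for the tenth to 343.4 kb for the sixth. In replicate 2 all of the 10 were touched by at least 1 region, as were 88.3% of all 282 stretches and 90.7% of those of 100 kb or more. A region of replicate 2 lay wholly inside 7 of the 10, against 96 of the 282. The 10 are also the widest, and a wider stretch has more room for a call. The widest stretch was split there by a region of 1475 bp, with 78328 bp bare on one side of it and 148731 bp on the other. The 191.3 kb stretch on 2L kept nearly the same limits in all 3 lists, with a gap of 193.9 kb in replicate 1 and 191.2 kb in replicate 2.

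**Figure D2:**
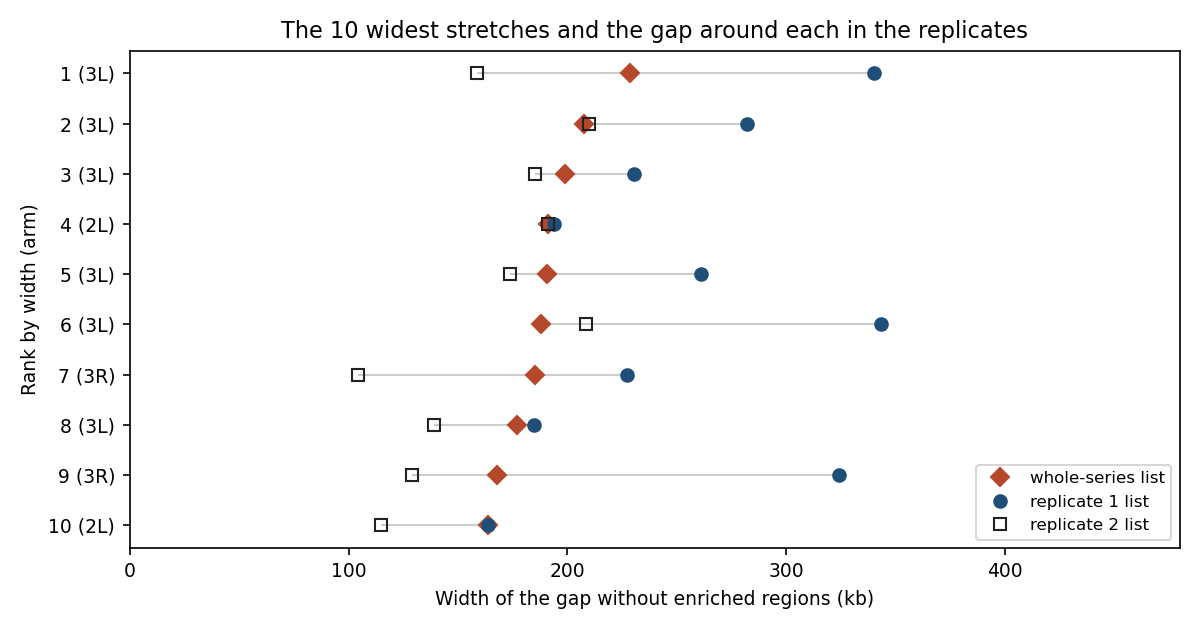
Width in kb of the 10 widest stretches in the whole-series list (red diamonds) and of the gap around each in the lists of replicate 1 (blue circles) and replicate 2 (open squares), ranked from the top with the arm in brackets. The replicate 1 gaps are wider than the stretch in each of the 10, and the seventh stretch (185.4 kb) shows a longest replicate 2 gap of 104.5 kb.

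Stretches were spread over the whole length of the arms, and no 1 Mb window counted from the first base was without one. Over 74 full windows of 1 Mb, the share lying in stretches had a median of 23.9%, a lowest value of 4.95% and a highest of 63.9%. Both extremes were on 3R. Windows counted from the centromere-side end cut 2L and 3L at other places, and the highest share among those was 65.5%, on 3L. The share fell as the share covered by regions rose (Spearman's rho -0.76 across the 74 windows, a description, since bare and covered sequence of 1 list share the same window). When each arm was cut into 5 equal parts from its telomere-side end to its centromere-side end, stretches took up 22.2%, 29.4%, 23.4%, 27.2% and 32.6% of the parts over the 3 arms together. The part on the centromere side held the largest share, with 70 of the 282 stretch midpoints and 24.2% of the stretch length. The same part held 22.6% and 25.9% of the stretch length found from replicate 1 and replicate 2. It had the largest share on 2L (35.4%) and 3R (30.6%), while on 3L it was lower than its neighbour (32.3% against 34.0%).

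At the centromere-side ends the 3 arms differed in the whole-series list with a window of 1 Mb. In the last 1 Mb of sequence next to the centromere, stretches took up 50.4% of 3R and 42.9% of 2L, against 22.1% and 26.3% of the rest of these arms. On 3L the share was 33.6%, close to the 31.1% of the rest of the arm, although regions covered only 8.93% of that window. That window held 51 regions, with a median gap of 13281 bp. The same windows of 2L and 3R held 52 and 41 regions, with median gaps of 5917.5 and 5264 bp. The cause of the lower share on 3L was not tested. Of these 3 ends, the replicate lists differed most at that of 3L. Replicate 1 left 99.3% of the window in stretches, the highest of 24 windows of that arm, and replicate 2 left 46.9%. Both values were above the shares of the whole of 3L, 63.7% and 30.5%. On 2L the same windows gave 90.0% and 46.0%, and on 3R 83.9% and 48.2% (replicate 1 and replicate 2). The likeness of the 3L end to the rest of its arm also depended on the window. With 2 Mb, the whole-series share there was 41.5%, against 30.3% of the rest. High shares were not particular to the centromere side. In the 0.5 Mb at the telomere-side end, stretches took up 53.0% of 2L, 55.5% of 3L and 29.7% of 3R. The 0.5 Mb at the centromere-side end gave 51.2%, 31.1% and 56.9%. In the 1 Mb at the telomere side the shares were 31.1%, 36.8% and 15.6%. Of the 6 ends of the 3 arms, 1 ended in a stretch, the first 67524 bp of 3L. The 5 other end gaps measured between 523 bp, at the centromere-side end of 3R, and 26005 bp, at that of 2L.

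**Figure D3:**
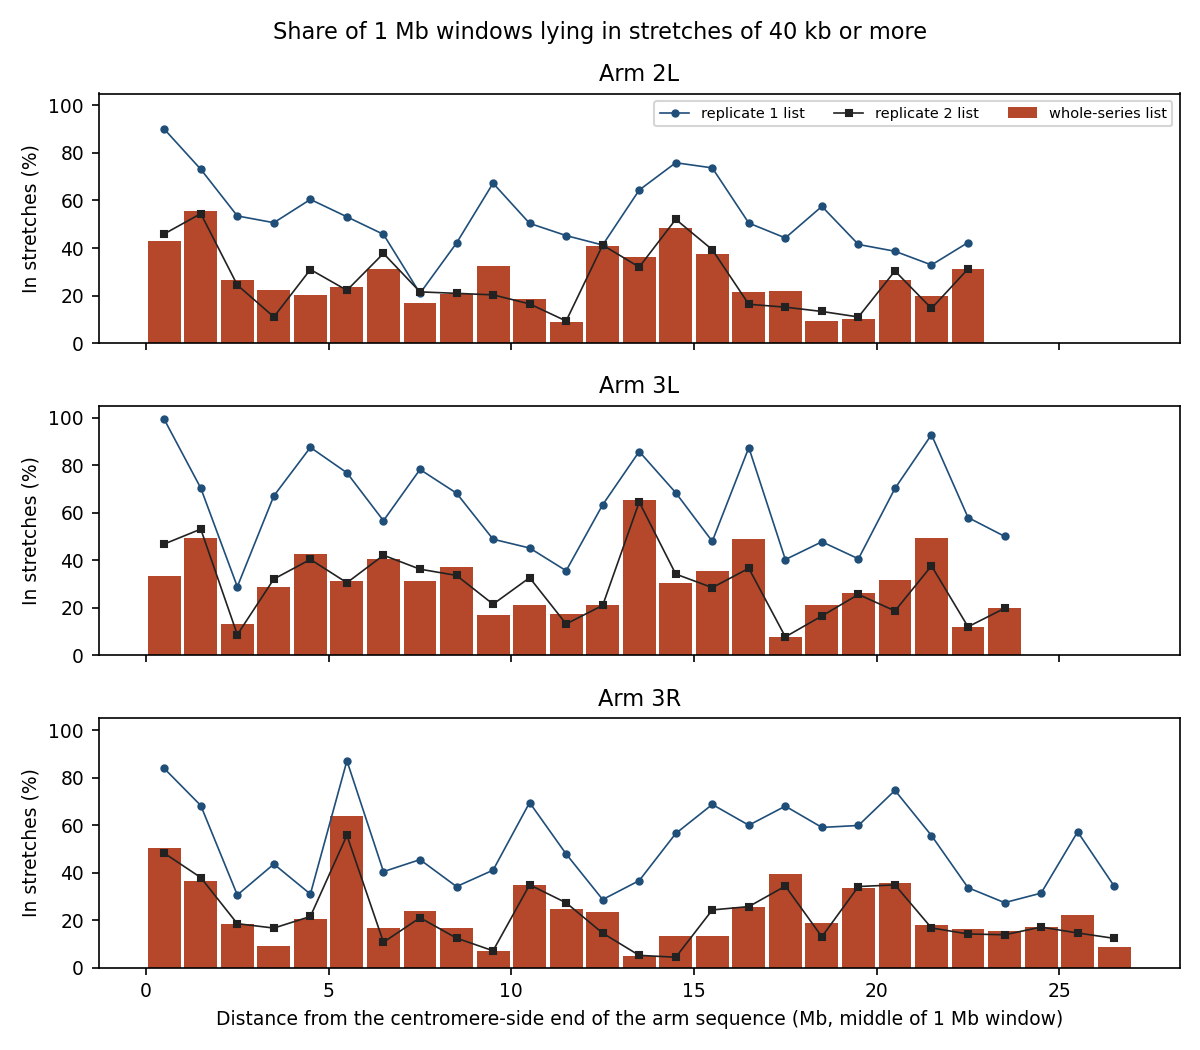
Share of each 1 Mb window lying in stretches of 40 kb or more, against distance in Mb from the centromere-side end of the arm sequence, for 2L, 3L and 3R. Bars are the whole-series list, circles replicate 1 and squares replicate 2; replicate 2 lies below replicate 1 in 73 of 74 windows, and the windows at the left edge of replicate 1 reach 90.0%, 99.3% and 83.9%.

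Neighbouring stretches were a median of 124.0 kb apart, but 34 of the 279 distances between neighbours on an arm were under 5 kb. In 29 places a run of 2 or 3 stretches was broken only by 1 region between each pair, and these runs held 64 of the 282 stretches. By the length spanned, the longest run of 2L was 335.1 kb, at 16222806 to 16557855, with stretches of 134.1 and 67.2 kb on either side of a region of 133.7 kb. On 3L it was 325.1 kb, at 3512370 to 3837515, with stretches of 104.0 and 123.4 kb on either side of a region of 97.8 kb. On 3R it was 264.3 kb, at 19675426 to 19939691, where stretches of 93.8 and 167.8 kb were only 2673 bp apart. Runs of 3 stretches included one on 3L at 7829162 to 8153998, with stretches of 55.5, 44.9 and 190.7 kb, and one on 2L at 10196543 to 10520212, with stretches of 97.0, 51.7 and 163.6 kb. The regions that break such runs were about as wide as the regions of the arms in general. Of the 35 regions with a stretch on both sides, the median width was 1901 bp and 51.4% were under 2 kb. For all regions of the 3 arms these values were 2006 bp and 49.7%. Of the 35, 28.6% touched a region of replicate 1 and 85.7% touched one of replicate 2, against 39.7% and 77.8% of all regions. The 133.7 kb region on 2L, at 16356944 to 16490628, was the widest of all regions that flank a stretch.

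The opposite extreme, sequence between stretches, reached its longest run on 2L. From 3173214 to 4809072, over 1.64 Mb, no gap reached 40 kb, and 216 regions covered 52.5% of the sequence. The longest such runs on 3R and 3L measured 952.5 kb (66.5% covered) and 867.4 kb (44.5% covered).

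The regions that border the stretches were mostly narrow, as were the regions of the arms in general. The 282 stretches were flanked by 528 regions, which had a median width of 1801 bp, against 2032 bp for the 6082 other regions of the 3 arms. Regions under 2 kb were 58.7% of the flanking and 48.9% of the other regions. At the wide end, 42 of the 528 flanking regions (7.95%) were 10 kb or wider, a share close to the 7.25% of all 6610 regions on these arms. Regions of 40 kb or more were 15 of the flanking regions (2.84%) and 75 of the other regions (1.23%). These widths depend on how regions are joined: with regions under 5000 bp apart taken as 1, 42.5% of the flanking regions and 43.4% of all regions were 10 kb or wider. The median score that the authors gave was 0.43 for flanking and 0.44 for other regions. The sources used here do not give the scale of that score. Flanking regions come from the list that defined the stretches, so these values are descriptions.

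Of the 281 stretches with a region on each side, 46 (16.4%) had 1 neighbour of 10 kb or more and 235 (83.6%) had none, against 10.2% and 87.7% of all 6600 such gaps on the arms. No stretch lay directly between 2 such wide regions, against 140 (2.12%) of all these gaps. The nearest region of 10 kb or more was a median of 75.0 kb away, and for 124 stretches it was over 100 kb away. No such distance was computed for shorter gaps. These counts and distances take regions as listed and were not repeated with regions under 5000 bp apart joined. Joining made 42.5% of flanking regions 10 kb or wider, so both can depend on how regions are split. The 3 widest flanking regions were that of 133.7 kb on 2L, one of 124.6 kb at 12565869 to 12690458 on 2L and one of 112.0 kb at 14071309 to 14183319 on 3L. Each was covered to at least 91.3% in both replicates. These are sharp borders in the lists, with bare sequence of 54.6 and 46.1 kb directly beside the 124.6 kb and 112.0 kb regions.

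Among the 3 flanking regions with the highest scores, 1 was broad and 2 were at the minimum width of the list. The broad one measured 104.8 kb, at 17203231 to 17308009 on 3R, with a score of 2.17, and it was covered to 100% in replicate 1 and 96.6% in replicate 2. The others were 1001 bp wide, at 23109725 to 23110725 on 3L (score 3.15) and 21653341 to 21654341 on 2L (score 3.00). Neither touched a region in either replicate, and together they bounded 3 stretches. Of all 528 flanking regions, 87 (16.5%) touched no replicate region, as did 16.8% of the other regions.

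Fewer of the flanking than of the other regions had a counterpart in replicate 1, given here as shares with no test. Of the 528, 130 (24.6%) touched a region of replicate 1 and 431 (81.6%) a region of replicate 2, against 41.0% and 77.5% of the other regions of the arms. Among regions under 2 kb the shares in replicate 1 were 4.84% of flanking and 14.2% of other regions, and among those of 2 to 5 kb 34.0% and 52.5%. Regions of 5 kb or more were nearly all in replicate 1 in both sets (87.0% of 77 flanking and 93.9% of other regions).

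Around the stretches, coverage by H3K27me3 rose with distance beyond the first 10 kb. In the whole-series list 44.2% of the sequence at 10 to 50 kb from the nearest stretch lay in regions, 52.4% at 50 to 100 kb, 59.3% at 100 to 200 kb and 63.5% beyond. The first 10 kb had 54.3%, where each stretch meets the region that ends it. In replicate 1, whose list is not independent of the whole-series list, coverage rose in each step, with 21.9%, 26.4%, 32.4%, 40.2% and 45.8%. Replicate 2 gave 46.7%, 38.7%, 46.0%, 50.3% and 56.2% for the same distances. Within 100 kb of stretches the whole-series list covered 48.9%, and over all sequence outside stretches 53.9%. Sequence far from any stretch has by the rule no gap of 40 kb, so part of the rise is set by the definition.

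**Figure D4:**
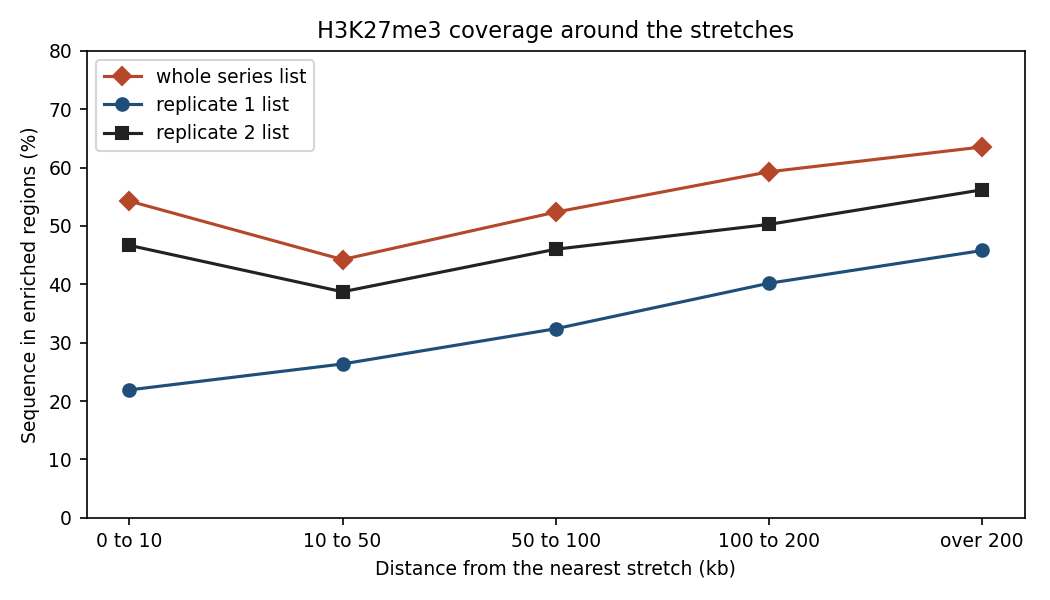
Share of sequence in enriched regions against distance in kb from the nearest stretch, stretches themselves left out, for the whole-series list (diamonds), replicate 1 (circles) and replicate 2 (squares) on 2L, 3L and 3R together. From 10 to 50 kb outward each list rises, from 44.2% to 63.5% in the whole-series list and from 26.4% to 45.8% in replicate 1.

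Inside the stretches the replicates held few calls. Regions of replicate 1 covered 0.0802% of the stretch length and regions of replicate 2 covered 1.35%, a mean of 0.713% ± 0.894 (SD, n = 2). Over the 3 arms as a whole they covered 24.8% and 34.6%. The sequence called in both replicates inside stretches was 0 bp. On the 3 arms both replicates called 16.0 Mb in common, of which 1730 bp lay outside the whole-series regions. The gaps under 40 kb of the same list were called more, at 1.60% in replicate 1 and 4.19% in replicate 2. In replicate 2 the share called fell with the width of the gap. It went from 12.8% of the length of gaps under 1 kb to 0.973% of stretches of 100 kb or more. In replicate 1 the share fell from 12.3% in gaps under 1 kb to 0.0687% in gaps of 20000 to 40000 bp. It did not fall steadily beyond that width. Stretches of 40000 to 60000 bp had 0.133%, those of 60000 to 100000 bp 0.0517% and wider ones 0.0537%. Edges count for more in short gaps. With 2000 bp left out at each edge, 0.999% of the stretch length and 1.91% of the length of shorter gaps was called in replicate 2, and 0.00433% and 0.128% in replicate 1. Gaps no wider than both edges together drop out of this measure, among them all 2660 gaps under 1 kb. Gaps of 20000 to 40000 bp had 1.54% in replicate 2 and 0% in replicate 1 by this measure. In replicate 1 the stretches were therefore not called less than the gaps next to them in width.

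**Figure D5:**
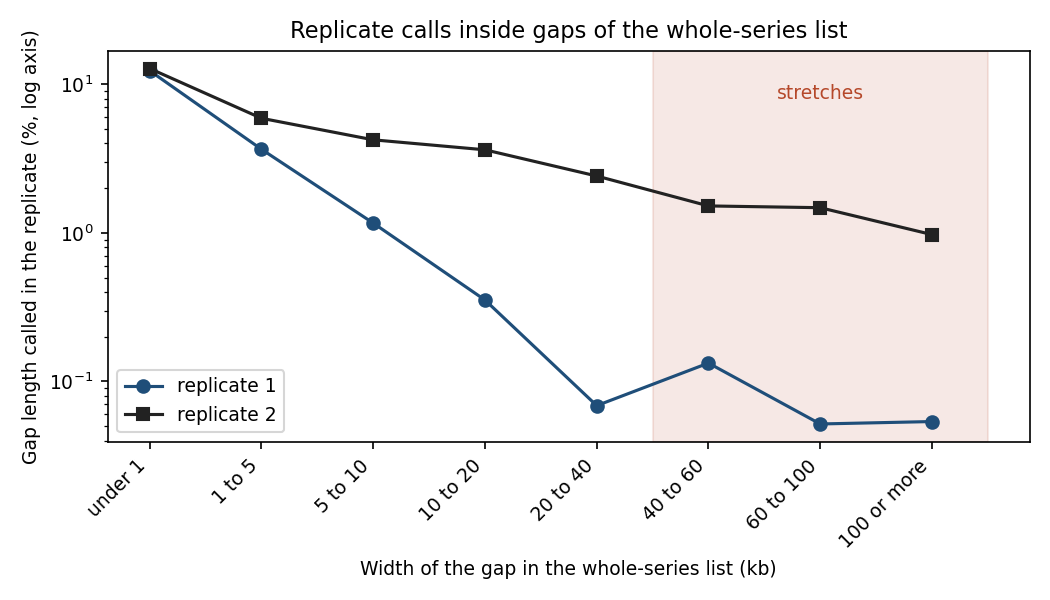
Share of gap length called in replicate 1 (circles) and replicate 2 (squares), on a log axis, by width in kb of the gap in the whole-series list, with the stretches shaded. Replicate 2 runs from 12.8% in gaps under 1 kb to 0.973% in stretches of 100 kb or more, and replicate 1 is at or below 0.133% in all 3 stretch classes.

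By number, 45 of the 282 stretches were touched by a region of replicate 1 (16.0%, 95% exact Clopper-Pearson interval 11.9% to 20.8%), against 20.8% of all 6606 gaps. Regions of replicate 2 touched 249 (88.3%, 95% interval 84.0% to 91.8%), against 55.5% of all gaps. The intervals cover counting error only. A longer gap has more room for a call: the share touched by replicate 2 was 44.5% for gaps under 1 kb, 83.6% for gaps of 20 to 40 kb and 90.7% for stretches of 100 kb or more. Touched by neither replicate were 22 stretches (7.80%, 95% interval 4.95% to 11.6%), against 28.2% of all gaps. They were 8 of the 87 on 2L, 8 of the 99 on 3L and 6 of the 96 on 3R. Over their full width, 22 of the 282 were therefore free of calls in all 3 lists, which is not the same as absence of the mark.

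By number, most of these contacts were at the edges. Of the 448 contacts in replicate 2, 314 were with regions that crossed the edge of a stretch, by a median of 119 bp and at most 1515 bp. In replicate 1, 45 of 47 contacts were of this kind, by a median of 111 bp. By length replicate 2 differed: regions wholly inside held 215.4 kb of the 273.7 kb it called in stretches, and edge crossings 58.3 kb. In replicate 1 edge crossings held 13.2 kb of 16.3 kb. When contacts at the edges are set aside, 184 stretches (65.2%, 95% interval 59.4% to 70.8%) had no region wholly inside in either replicate. This count was not made for shorter gaps, so the share has no comparison. A gap under 1301 bp, the width of the narrowest replicate region, cannot hold a region wholly. Replicate 1 had 2 regions wholly inside. One of 1815 bp lay at 7536664 to 7538478 on 2L, 378 bp from the edge of its stretch, and one of 1301 bp at 10547325 to 10548625 on 3L, 801 bp from the edge.

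Replicate 2 had 134 regions wholly inside 96 stretches, at most 4 in 1 stretch, and these were narrow and of low score within their list. They were 2.04% of the 6556 regions of replicate 2 on the 3 arms. Of the 134, 121 were under 2 kb wide, with a median of 1479 bp and a maximum of 4376 bp, against a median of 2129 bp for all regions of replicate 2 on the 3 arms. Their median score was 0.50, against 0.64 for all of them, and it was higher than the score of 26.1% of those regions. None of the 134 touched a region of replicate 1. The lists left little room for another outcome, as only 1730 bp called in both replicates lay outside the whole-series regions. The share of all replicate 2 regions that touch replicate 1 was not computed. The 134 lay a median of 14.5 kb from the nearer edge, so they were not all at the borders. The stretches with the most sequence called in replicate 2 were 55.8 kb at 18264188 to 18320004 on 3R (7161 bp, 12.8% of it), 84.6 kb at 8387200 to 8471751 on 3L (6544 bp) and 66.5 kb at 19342102 to 19408556 on 3L (6263 bp). In replicate 1 the 3 with the most were 59.9 kb at 181955 to 241853 on 3R (2537 bp), 76.5 kb at 7462332 to 7538856 on 2L (1815 bp) and 117.5 kb at 24850269 to 24967756 on 3R (1578 bp).

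The 5 widest of the 22 stretches without any replicate call all lay on 2L. They measured 112.4 kb (15662639 to 15775047), 100.2 kb (14608143 to 14708382), 93.9 kb (12453301 to 12547214), 93.0 kb (17633137 to 17726185) and 86.4 kb (22860636 to 22947035). None was among the 10 widest stretches, and the first had rank 30 by width. The last lay in the part of 2L next to the centromere, inside a gap of 483.6 kb in replicate 1 and of 181.2 kb in replicate 2. The 22 had a median width of 56.7 kb, against 61.5 kb for the other 260. When stretches were found anew as sequence free of all 3 lists, 262 of 40 kb or more remained, with 17.7 Mb, or 86.8% of the summed length of the 282, and the widest measured 207.5 kb.

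The limits of the stretches matched replicate 2 far more closely than replicate 1. Both edges lay within 1000 bp of the edges of a gap of replicate 2 for 117 stretches (41.5%) and of a gap of replicate 1 for 13 (4.61%). In both replicates at once this held for 2 stretches of 3R, one of 93.4 kb (25857832 to 25951279) and one of 71.5 kb (9790177 to 9861678). Replicate 1 left wider gaps around them. Its gap had a median width of 161.2 kb and was at least 2 times as wide as the stretch in 159 of the 282 cases, against 57.7 kb and 3 cases in replicate 2. The widest gap of replicate 1 was 752.8 kb, at 11031638 to 11784452 on 3L, which held 6 stretches, with 21 whole-series regions over 4.26% of its length between them.

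Found from each replicate alone, the stretches overlapped closely in 1 direction. Replicate 1 gave 345 stretches with 42.0 Mb, 55.7% of the 3 arms, and replicate 2 gave 282 with 19.6 Mb, 26.0% of the arms. The mean number was 313.5 ± 44.5 (SD, n = 2). Shared length came to 19.4 Mb, which was 98.6% of the stretches of replicate 2 and 46.1% of those of replicate 1. The same direction was seen on each arm, with 98.4% to 99.0% of replicate 2 inside replicate 1. With both lists cut to their 4865 highest-scoring regions, each gave stretches over about the same length, 55.7% of the arms in replicate 1 and 54.7% in replicate 2. Shared length was then 84.1% of what replicate 1 left bare and 85.6% of what replicate 2 did.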

How the data were processed

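Regions of H3K27me3 enrichment were used as the authors deposited them, in 1 list for each of 2 ChIP libraries and 1 list for the whole series. The submitters' processing notes name Bowtie 0.12.7 as aligner, and positions are on FlyBase release 5, per the file headers. The sources used here do not name the region caller or its threshold, nor how the whole-series list was made. The score deposited by the authors for each region has no stated scale and was used only within a list. One depleted region of replicate 2 was set aside, and 1 start of the whole-series list was read from exponent form. The inputs were used only by the authors.

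Gaps, overlaps and distances were computed in base pairs (Python 3.11.15, pandas 2.3.3, NumPy 2.4.6), and intervals of shares with SciPy 1.17.1. The code was tested on simulated data. A touch means at least 1 bp. Stretches were named by rule: the 10 widest and the widest of each arm, those at an arm end, those nearest the threshold, those most called in each replicate, those free in all lists, the longest runs and the widest and highest-scoring flanking regions. Other positions were chosen after their values were seen. The members were chosen with earlier results of these data known, and no test or comparison with shuffled regions was made. No gene was assigned, because the gene table was of release 6.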

Additional observations from a re-analysis of the deposited data

How the results depend on the processing

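Of 83 results under other settings, 53 moved by less than the spread between the replicates or the counting interval (for the number of stretches, by less than 1.5 times). That spread was wide, so the count of 53 says little about stability. For the share of the arms it was 21.0 points. The 44.5% found when only regions of 2000 bp or more ended a stretch counted as unmoved from 26.97%. For the stretch length called it was 0.894 around a mean of 0.713%, so no lower value could count as moved. The number of stretches stayed between 204 and 399. Stretches per Mb followed the minimum width by construction, with 5.58 on 3L, 5.26 on 2L and 4.59 on 3R at 30000 bp and 3.14, 2.78 and 2.26 at 50000 bp. When only regions of 2000 bp or more ended a stretch they were 5.38, 5.04 and 4.69, and when only regions scoring at least the median did, 5.58, 5.56 and 4.80, with 48.7% of the arms in stretches. From replicate 1 or replicate 2 alone, stretches took up 55.7% or 26.0% of the arms, with medians of 92.7 or 58.4 kb and 4.52 or 4.24 per Mb on 3L, 4.26 or 3.74 on 2L and 4.87 or 3.30 on 3R. Coverage within 100 kb of stretches was 28.0% in replicate 1 and 42.7% in replicate 2. Wide flanking regions were 14.6% at 5000 bp (17.2% of all regions), 4.55% at 20000 bp (3.10%) and 42.5% with regions under 5000 bp apart joined (43.4%). Stretches with no replicate call were 7.80% at the main setting, against 28.2% of all gaps. They were 65.6% with 2000 bp left out at each edge and 65.2% counting only regions wholly inside. They were 50.4% counting replicate regions that scored at least the median, 84.0% in replicate 1 alone and 11.7% in replicate 2 alone. For all gaps the share was not computed with edges left out, for regions wholly inside or by score. The stretch length called in 1 replicate alone was 0.0802% to 1.35%. The share of replicate 2 stretches inside those of replicate 1 was 96.4% for regions scoring at least the median and 85.6% with lists of equal length. This overlap cannot be had without either replicate. No paired analysis was possible because no result comes from a test between ChIP and input libraries. Unknown read depth limits each comparison of the lists.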
